A study of Arabidopsis thaliana with 123 samples.

Results

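The comparison described here asks which transcripts differ when a cyp707a2 mutation is added to abi3-12 dog1-4 in seeds of Arabidopsis thaliana at 20 days after pollination (DAP). It rests on 6 of the 123 libraries of the series: 3 of genotype abi3-12 dog1-4 and 3 of genotype abi3-12 dog1-4 cyp707a2, chosen by their labels, all from batch B, which the labels call experimental round 3. Both groups are whole seeds of the Col-0 accession and both carry the abi3-12 and dog1-4 mutations, so that the cyp707a2 mutation, whose allele the labels do not number, is the labelled difference. The labels call the first genotype a double and the second a triple knock-out, and the names double mutant and triple mutant are used below. Wild type, abi3-12 and dog1-4 seeds of the same batch and day, 3 libraries each, are given beside them for their levels. Both mutants at 18, 22 and 24 DAP and as dry seeds were compared with each other in the same way. Each library was made from the pooled seeds of several siliques, so the p-values rest on the spread between such pools from plants grown together. That spread was estimated within all 31 groups of batch B in one fit, not within the 6 compared libraries alone. In a fit of the compared groups only, 499 genes were called instead of 1220.

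Abscisic acid (ABA) is the hormone of seed maturation and dormancy. CYP707A enzymes hydroxylate and so inactivate it, and CYP707A2 is the member best known for lowering ABA in maturing and imbibed seeds. ABA bound to PYR/PYL receptors blocks the clade A PP2C phosphatases, which frees SnRK2 kinases to act on bZIP factors such as ABI5 that bind ABRE elements with an ACGTG core. ABI3 is a B3-domain factor that works with these bZIP factors, and through RY elements (CATGCA), to turn on genes of storage, oil bodies and desiccation tolerance, and DOG1 is a dormancy protein that binds a PP2C. Seeds of strong abi3 mutants stay green and begin seedling gene expression before they dry.

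Libraries of the double mutant held 10429455 to 11171813 counts and those of the triple mutant 8957456 to 9398410. Correlations of log2 levels were 0.975 to 0.983 within the groups and 0.966 to 0.978 between them. Set on the wild-type course of batch A, from 12 DAP to dry seed, by the closest rank correlation, the libraries of the double mutant lay at day 18.8, 18.9 and 18.7. Those of the triple mutant lay at 18.8, 18.5 and 18.6, which overlap. The difference was -0.167 days (two-sided exact permutation p = 0.3, where 0.1 is the smallest that 3 against 3 allow). Their rank correlation with that course was 0.905, 0.903 and 0.911 in the double mutant and 0.931, 0.929 and 0.928 in the triple mutant, without overlap (exact permutation p = 0.1). Wild type of batch B at 20 DAP lay at day 18.1, 18.5 and 18.8, with rank correlations of 0.989, 0.981 and 0.976. The abi3-12 libraries lay at 18.8, 18.8 and 18.6 (0.962, 0.958 and 0.954). Those of dog1-4 lay at 18.4, 18.3 and 18.5 (0.983, 0.981 and 0.982). Places before day 20 were thus shared by wild type of this batch. Replicate 1 of the double mutant held the most photosynthesis transcripts and replicate 2 of the triple mutant the most oil body transcripts of its group. Counts that turn on a single library are given with and without it.

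CYP707A2 (AT2G29090, chromosome 2) itself stood at 42.6, 56.4 and 53.3 CPM (read counts scaled to a common library size with TMM factors) in the 3 libraries of the double mutant and at 9.32, 4.89 and 5.77 in those of the triple mutant. All 3 libraries of the triple mutant were below all 3 of the double mutant, and the log2 change was -2.93 (SE 0.28, adjusted p = 1.43e-11). Here and below a log2 change is triple over double mutant, and the p is that of edgeR's quasi-likelihood test, adjusted over all genes tested. In bulk seeds, fewer cells of a type and less RNA per cell cannot be told apart in this or any other level. The transcript was not absent, and it did not stay lower: the log2 change was -4.75 at 18 DAP and 1.16 at 22 DAP, where the triple mutant had 14.2 and the double mutant 6.36 CPM. ABI3 transcripts were at 322, 329 and 349.97 CPM in the double and 416, 433 and 362 in the triple mutant. For ABI3 the log2 change was 0.27 (SE 0.10, adjusted p = 0.1). DOG1 was at 7.12, 3.3 and 6.52 and 6.68, 11.3 and 4.2 CPM in these groups, which overlap, against 373 ± 123 (SD, n = 3) in wild type. Of the 40 tested genes nearest to CYP707A2, 20 on each side, 3 were called, against 5.83% of all genes tested. They were XBAT31 (log2 change -0.86), AT2G29180 (-0.90) and TOPP1 (-0.54), of which XBAT31 and TOPP1 are named after their values were seen. AT2G29180 kept its call only without replicate 2 of the double mutant, and without any other library its adjusted p was up to 0.221.

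Of 37336 genes in the table, 20912 passed the expression filter, and 1220 of them (5.83%) were called different at an adjusted p under 0.05. They divided into 698 higher (3.34% of genes tested) and 522 lower (2.5%) in the triple mutant. Rises were mostly small, with a median log2 fold change of 0.529 among the genes called higher, and falls were larger, with a median size of 1. A change of at least 2-fold was found for 367 genes (1.75%), 106 higher (0.507%) and 261 lower (1.25%). Without replicate 2 of the double mutant that count was 193, and without replicate 2 of the triple mutant 177. A change of at least 4-fold was found for 20 genes higher and 135 lower. The sizes in this paragraph are fitted values, which are no measure of size for genes with no count in one group. A test against a 2-fold change called 18 genes, 7 higher and 11 lower. The groups' libraries did not overlap for 1153 of the 1220 genes, and did not overlap for 5013 (24%) of all genes tested. Leaving out a single library changed the number called, to 434 without replicate 2 of the double mutant and to 399 without replicate 2 or 804 without replicate 1 of the triple mutant. In all, 224 genes (107 higher, 117 lower) were called the same way whichever of the 6 libraries was left out. Scaled by library totals alone, the genes' median moved from 0.01 to -0.18, and 236 genes were called higher and 1860 lower.

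**Figure D1:**
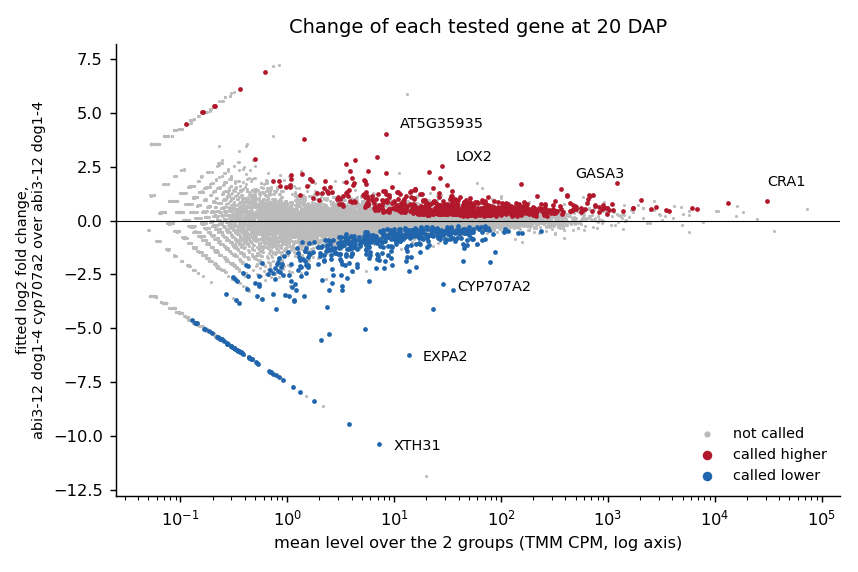
Each point is one of the genes tested: its mean level over both groups (TMM CPM, log axis) against its fitted log2 fold change at 20 DAP, red if called higher and blue if called lower in abi3-12 dog1-4 cyp707a2. The 698 rises lie mostly close to the zero line and the 522 falls reach further from it; the straight diagonal edges are genes with no count in one group, whose fitted values are no measure of size.

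Among the genes called with non-overlapping libraries and a mean of at least 10 CPM in a group, the largest rise was that of AT5G35935, a pseudogene of chromosome 5 in RefSeq. It stood at 0.879, 1.18 and 0.793 CPM in the double mutant and 13.01, 17.8 and 16.3 in the triple mutant, with a log2 change of 4.02 (SE 0.27, adjusted p = 3.61e-18). At the same day dog1-4 had 0.305 ± 0.0709 CPM, wild type 8.12 ± 0.596 and abi3-12 9.99 ± 1.09 (SD, n = 3). Methionine sulfoxide reductases repair oxidised methionine, and MSRB5 rose from 0.703, 2.98 and 0.969 to 12.1, 14.3 and 10.5 CPM. For MSRB5 the log2 change was 2.93 (SE 0.49, adjusted p = 7.54e-05). MSRB4 of the same family rose from 3.69, 14.1 and 4.14 to 26.2, 49.2 and 29.5 CPM. For MSRB4 the log2 change was 2.23 (SE 0.33, adjusted p = 4.12e-06). Reads of these related, closely spaced genes on chromosome 4 could have been divided between them in counting. LOX2, a chloroplast lipoxygenase at the start of jasmonate synthesis, rose from 6.59, 11.9 and 5.99 to 62.2, 59.9 and 19.8 CPM. Its log2 change was 2.52 (SE 0.46, adjusted p = 0.000487), and it had no count in wild type or abi3-12 at this day. PMAT2, a phenolic glucoside malonyltransferase, stood at 12.9, 10.4 and 12.9 and then 28.3, 42.3 and 32.1 CPM, beside 43.6 ± 3.37 in wild type. For PMAT2 the log2 change was 1.499 (SE 0.18, adjusted p = 1.18e-08). GASA2, a small cysteine-rich peptide gene of a gibberellin-regulated family, rose from 18.99, 12.9 and 13.7 to 49.2, 52.3 and 41.2 CPM, still far below the wild type (1279 ± 187). For GASA2 the log2 change was 1.65 (SE 0.31, adjusted p = 0.000286). Its neighbour GASA3 went from 209.6, 164 and 204 to 529.7, 586 and 494 CPM, beside 1902 ± 173 in wild type. For GASA3 the log2 change was 1.48 (SE 0.17, adjusted p = 1e-08). These calls held whichever library was left out. The rise of AT3G06325, a long non-coding RNA, did not, and was highest in a single library: 2.9, 3.38 and 2.82 against 3.91, 5.89 and 31.2 CPM. The adjusted p was 0.747 without that library. It was also not called without any library of the double mutant, at 0.0963, 0.116 and 0.0886.

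The largest falls are given next. XTH31, a xyloglucan endotransglucosylase/hydrolase that cuts and rejoins xyloglucan, had 17.5, 16.6 and 9.07 CPM in the double mutant and no count in any library of the triple mutant. It was at least 41.6-fold lower against a floor of 3 counts per library (adjusted p = 0.000325). EXPA2, an expansin known for germination, was at 26.6, 34.1 and 20.1 CPM in the double and 0, 0 and 0.945 CPM in the triple mutant. For EXPA2 the log2 change was -6.26 (SE 0.78, adjusted p = 4.63e-07). EXPA9 stood at 8.97, 14.4 and 7.49 and 0.921, 1 and 2.41 CPM. For EXPA9 the log2 change was -2.80 (SE 0.50, adjusted p = 0.000203). XTH31, EXPA2 and EXPA9 had no count in wild type seeds at 20 DAP. XTH19 fell from 23.5, 29.4 and 16.5 to 2.88, 3.76 and 6.93 CPM. For XTH19 the log2 change was -2.33 (SE 0.39, adjusted p = 7.94e-05). GASA6, a peptide linked to cell elongation at germination, fell from 10.11, 12.6 and 8.45 to 0, 0.376 and 0.525 CPM. For GASA6 the log2 change was -5.04 (SE 0.88, adjusted p = 0.000161). CP1 (AT4G36880), a papain-type cysteine proteinase, fell from 68.5, 44.8 and 17.5 to 1.04, 1.88 and 4.41 CPM. For CP1 the log2 change was -4.12 (SE 0.65, adjusted p = 2.98e-05). The calls of these 6 genes, and that of CYP707A2, held whichever library was left out. PYK10, the beta-glucosidase of ER bodies, was at 143, 34.3 and 15.9 CPM against 1.61, 5.02 and 13.6. For PYK10 the log2 change was -3.22 (SE 0.77, adjusted p = 0.00566). Replicate 1 of the double mutant was far above its fellows. Without it the adjusted p was 0.174, without replicate 1 of the triple mutant 0.0507 and without replicate 2 0.0527. The PYK10-binding lectin PBP1 showed the same high library (49.1, 15.7 and 13.8 against 4.83, 5.02 and 7.56 CPM). For PBP1 the log2 change was -2.16 (SE 0.43, adjusted p = 0.000761), and the adjusted p without that library was 0.0677.

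**Figure D2:**
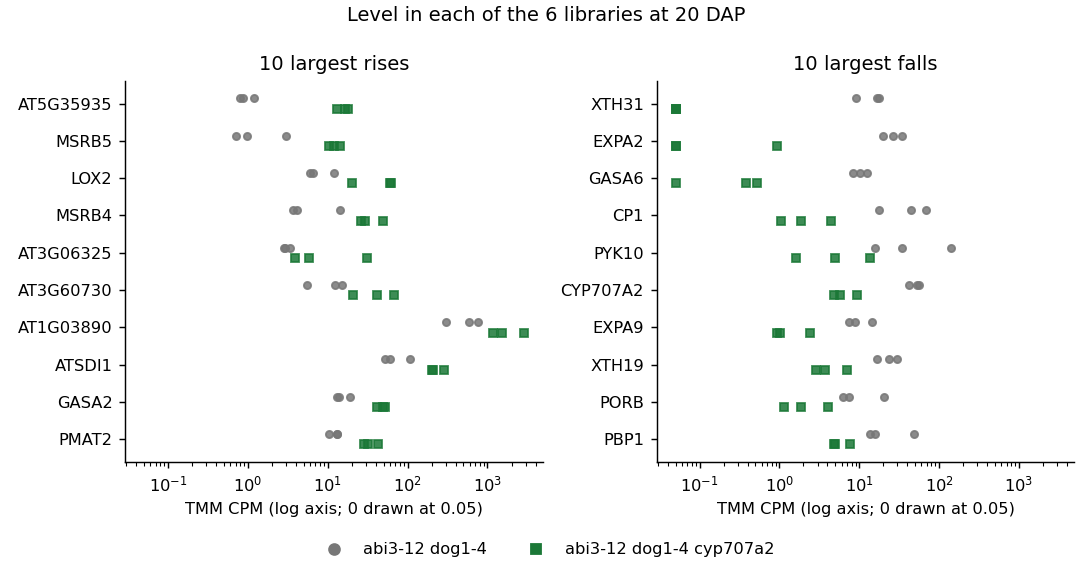
Level (TMM CPM, log axis, zeros drawn at 0.05) of the 10 largest rises and the 10 largest falls in each of the 6 libraries, circles for abi3-12 dog1-4 and squares for abi3-12 dog1-4 cyp707a2. The groups are separate for every gene shown by the rule that chose them; the 3 squares of XTH31 are at 0, and single libraries lie apart for AT3G06325 and PYK10.

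The 250 bases before the annotated gene start were read for 20784 of the genes tested, on the RefSeq TAIR10.1 assembly, and searched on both strands. The ABRE core ACGTG was found before 24.2% of them, before 39.5% of the 698 genes called higher and before 24.4% of the 521 genes called lower that had a sequence. Of the genes called and at least 2-fold higher 32.1% held it, and of those at least 2-fold lower 25.8%. The longer forms ACGTGTC and ACGTGGC, both of which contain ACGTG, were found before 12.8% and 10.9% of the genes called higher, against 4.45% and 4.03% of all. The RY core CATGCA was found before 7.71% of all genes, 11.5% of the genes called higher and 7.49% of those called lower. Of the genes called and at least 2-fold higher 26.4% held it, and of those at least 2-fold lower 11.2%. Of the gene lists described below, LEA genes held ACGTG in 21 of 24 promoters and storage protein genes CATGCA in 11 of 13. Oil body genes held CATGCA in 9 of 9, and photosynthesis genes ACGTG in 10 of 35. Shown here, for what their letters hold beside a firm change, are promoters of genes whose calls held whichever library was left out, of genes that rose (EM6, GASA3) and of genes that fell (PSAD1, EXPA2). They are printed 5′ to 3′ on the strand of the gene, with the ABRE core, the RY core and their reverse complements in capitals. A match of letters is a description of the window and not a bound site.
EM6 promoter, chr2:16780369-16780618, minus strand: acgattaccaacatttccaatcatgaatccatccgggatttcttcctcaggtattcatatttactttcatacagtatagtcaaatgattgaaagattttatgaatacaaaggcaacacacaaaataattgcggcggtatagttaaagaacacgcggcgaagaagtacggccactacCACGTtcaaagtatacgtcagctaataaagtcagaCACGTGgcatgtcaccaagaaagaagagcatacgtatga
GASA3 promoter, chr4:6073647-6073896, minus strand: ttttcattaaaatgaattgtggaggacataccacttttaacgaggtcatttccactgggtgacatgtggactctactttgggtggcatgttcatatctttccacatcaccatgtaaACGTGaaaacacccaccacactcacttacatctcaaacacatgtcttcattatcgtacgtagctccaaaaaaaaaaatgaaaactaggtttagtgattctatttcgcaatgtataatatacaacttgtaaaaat
PSAD1 promoter, chr4:1230165-1230414, minus strand: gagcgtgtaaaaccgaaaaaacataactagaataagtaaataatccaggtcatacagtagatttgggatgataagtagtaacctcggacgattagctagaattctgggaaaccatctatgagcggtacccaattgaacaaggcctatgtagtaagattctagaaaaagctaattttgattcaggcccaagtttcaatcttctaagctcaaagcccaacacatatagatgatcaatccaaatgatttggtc
EXPA2 promoter, chr5:1568444-1568693, plus strand: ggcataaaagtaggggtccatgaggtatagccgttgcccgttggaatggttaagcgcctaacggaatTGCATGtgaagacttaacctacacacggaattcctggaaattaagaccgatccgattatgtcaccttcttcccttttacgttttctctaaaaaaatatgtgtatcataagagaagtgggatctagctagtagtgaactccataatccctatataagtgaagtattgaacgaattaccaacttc
EM6 held ACGTG 3 times counting both strands, and GASA3 once. The EM6 matches that begin 38 (same strand) and 39 (opposite strand) bases before the gene start overlap in a single CACGTG. Neither ACGTG nor CATGCA was in the window of PSAD1, and EXPA2 held 1 CATGCA on the opposite strand.

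Apart from CYP707A2, no listed gene of ABA synthesis or breakdown was called, where 5.83% of all genes tested were. Lists this short can hold no call at that share, so the counts do not set them apart. The 10 genes of ABA synthesis had a median log2 change of -0.13, against 0.00 over all genes tested. ABA1, the zeaxanthin epoxidase, had 133, 124 and 127 CPM in the double and 173, 149.6 and 121 in the triple mutant. ABA2, which makes abscisic aldehyde, had 4.57, 3.53 and 4.23 and 3.8, 5.77 and 3.88. CYP707A1 (1.32, 0 and 1.23 and 1.61, 1.38 and 1.89 CPM) and the ABA glucosyltransferase gene UGT71C5 (19.4, 18.1 and 19.1 and 18.1, 21.4 and 17.2) were not called. Of 13 receptor genes tested 1 was called higher and 1 lower, where 3.34% and 2.5% of all genes tested were. PYL9 was higher (11.1, 10.4 and 10.7 against 14.8, 14.05 and 14.5 CPM, log2 change 0.43, SE 0.11, adjusted p = 0.0125). PYL5 was lower (13.5, 13.5 and 13.03 against 8.75, 6.77 and 9.97 CPM, log2 change -0.64, SE 0.17, adjusted p = 0.0127). PYL5 was not called without replicate 2 of the triple mutant (0.132), nor PYL9 without replicate 2 of the double mutant (0.124), or replicate 1 (0.0832) or 2 (0.0719) of the triple mutant.

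The genes of the phosphatases that ABA receptors inhibit are themselves induced by ABA. Of 9 clade A PP2C genes, 8 had a fold change above 0, 3 were called higher and none lower, with a median log2 fold change of 0.38. Of all genes tested 3.34% were called higher and 2.5% lower. HAB2 had 58.03, 58.6 and 55.7 CPM in the double mutant and 68.6, 68.97 and 71.1 in the triple mutant. For HAB2 the log2 change was 0.28 (SE 0.08, adjusted p = 0.0265). HAB1 had 40.8, 40.3 and 34.4 and 52.4, 55.8 and 48.9 CPM. For HAB1 the log2 change was 0.44 (SE 0.13, adjusted p = 0.0326). ABI2, the third, had 42.6, 38.5 and 41.7 and 54.3, 56.4 and 54.5 CPM. For ABI2 the log2 change was 0.43 (SE 0.13, adjusted p = 0.0376). The libraries of the groups did not overlap for 7 of the 9 genes, against 24% of all genes tested. The number of PP2C genes called was 1 without replicate 3 of the triple mutant, 0 without any other library, and 0 with library totals. None of 3 SnRK2 kinase genes and none of 9 bZIP factors was called, where 5.83% of all genes tested were. ABI5 stood at 229.8, 197 and 221 and 392, 238 and 305 CPM. For ABI5 the log2 change was 0.53 (SE 0.18, adjusted p = 0.0641). Of 18 ABA-responsive genes only GBF3, a G-box binding factor, was called, from 71.5, 65.7 and 66.8 to 104, 112 and 98.5 CPM. For GBF3 the log2 change was 0.62 (SE 0.13, adjusted p = 0.00112), and this call held without any one library. RAB18, a dehydrin used as an ABA reporter, was at 5031, 3837 and 4602 and 5691, 5215 and 5666 CPM, without overlap and below the wild type (32675 ± 5120.0), but was not called (adjusted p = 0.42). Among 13 dormancy regulators, AT4G18660, of the DOG1-like family, rose from 29.6, 21.4 and 24.4 to 53.4, 44.9 and 40.1 CPM (log2 change 0.88, SE 0.13, adjusted p = 4.39e-06) whichever library was left out. SOM, a zinc finger repressor of germination, rose from 267, 255 and 316 to 425, 357 and 373 CPM. For SOM the log2 change was 0.46 (SE 0.14, adjusted p = 0.0392). That call held without replicate 3 of the double mutant and was lost without any other library, at most 0.267 without its replicate 2.

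Of the lists of late maturation, those of the oil body and of desiccation tolerance held the largest shares of genes called higher. All 9 oil body genes had a fold change above 0, 6 were called higher and none lower, and the list's median log2 fold change was 0.87. Over all genes tested, 3.34% were called higher and 2.5% lower. OLEO2, an oleosin that coats oil bodies, stood at 1719.7, 1015 and 1457 CPM in the double mutant and 2358, 3379 and 2395 in the triple mutant, beside 14646 ± 2114 in wild type. For OLEO2 the log2 change was 0.96 (SE 0.18, adjusted p = 0.000283). Caleosin CLO1 had 338, 147 and 292 CPM against 384, 867 and 481. For CLO1 the log2 change was 1.16 (SE 0.31, adjusted p = 0.0147). OLEO4 had 608, 256 and 471 CPM against 782, 1389 and 862. For OLEO4 the log2 change was 1.18 (SE 0.33, adjusted p = 0.0192). Without replicate 2 of the double or of the triple mutant neither was called (adjusted p of 0.221 and 0.305 for CLO1, 0.235 and 0.229 for OLEO4). Summed over the list, the levels were 15251, 12073 and 14684 CPM against 21868, 29937 and 22237, so that every library of the triple mutant was above every library of the double mutant. The number called was 2 without replicate 2 of the double mutant, the lowest of its group, and 2 without replicate 2 of the triple mutant, the highest. In a fit of the compared groups only, 1 was called, with a median of 0.87. None of 20 enzymes of oil synthesis was called (median 0.01), nor any of 10 enzymes of oil breakdown (median -0.02). Where 5.83% of all genes tested were called, lists of these sizes can hold no call.

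Late embryogenesis abundant (LEA) proteins protect cells in the dry state. Of 26 LEA genes listed, 24 were tested, 23 had a fold change above 0, and 12 were called higher and none lower, with a median of 0.54. The share called higher over all genes tested was 3.34%. EM6, whose loss makes seeds dry too early, rose from 138, 129.9 and 137 to 378, 232 and 272 CPM, without overlap, while wild type had 13253 ± 3801. For EM6 the log2 change was 1.12 (SE 0.23, adjusted p = 0.000968). The LEA gene AT2G18340 rose from 39.1, 46.7 and 48.2 to 77.1, 105 and 80.2 CPM (log2 change 0.97, SE 0.21, adjusted p = 0.00198, and 0.0524 without replicate 2 of the triple mutant). AT2G21490, a dehydrin, rose from 367, 311 and 399 to 648, 661 and 469.7 CPM. For AT2G21490 the log2 change was 0.72 (SE 0.17, adjusted p = 0.00571). The call was lost without replicate 2 of the double mutant (0.102), or replicate 1 (0.0511) or 2 (0.0855) of the triple mutant. The list held 2.75 ± 0.178% of all counts in the double and 3.33 ± 0.276% in the triple mutant (SD, n = 3; exact permutation p = 0.1, the smallest possible), against 6.48 ± 1.17% in wild type. Called genes numbered 2 without replicate 2 of the double mutant, 3 without replicate 1 or replicate 2 of the triple mutant, 7 when only the compared groups were fitted and 5 with library totals, all higher.

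Of 13 storage protein genes, 4 were called higher (against 3.34% of all genes tested) and none lower, with a median of 0.55. The cruciferin CRA1 had 24904, 17676 and 21057 CPM against 41442, 46642 and 32507. For CRA1 the log2 change was 0.92 (SE 0.27, adjusted p = 0.0297). CRA1 kept its call only without replicate 1 of the double mutant or replicate 3 of the triple mutant, and its adjusted p was otherwise up to 0.212. The cruciferin CRU3 had 70752, 55090 and 53252 CPM against 85844, 113930 and 63310, which overlap, and was not called (adjusted p = 0.306). The cupin AT1G03890 had 771, 303 and 592 CPM against 1184, 2866 and 1519.9. For AT1G03890 the log2 change was 1.74 (SE 0.45, adjusted p = 0.0104). The others called were the vicilin-like PAP85 and the cupin AT4G36700. None of the 5 genes of 2S albumins was called: SESA2 had 47700.0, 31892 and 44259 CPM in the double and 33698, 30264 and 25427 in the triple mutant (log2 change -0.47). Without replicate 2 of the double mutant or replicate 2 of the triple mutant no storage gene was called, and without replicate 1 of the triple mutant 2 were, as with library totals. In a fit of the compared groups only, 1 was called. As a share of all counts the list held 18.7 ± 2.31% and 20.4 ± 3.04%, which overlap (exact permutation p = 0.4), against 30.5 ± 5% in wild type.

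Of 15 heat shock genes, 2 were called higher (13.3%, against 3.34% of all genes tested) and none lower, with a median of 0.73. The factor HSFA2 had 8.18, 8.64 and 7.4 CPM against 15.8, 14.7 and 30.3. For HSFA2 the log2 change was 1.34 (SE 0.38, adjusted p = 0.0224). HSP17.6A had 0.615, 2.36 and 1.94 CPM against 5.06, 4.39 and 9.87. For HSP17.6A the log2 change was 1.97 (SE 0.61, adjusted p = 0.0397). HSFA2 kept its call only without replicate 1 or replicate 2 of the triple mutant, and HSP17.6A lost it without any one library (adjusted p of 0.239 without replicate 3 of the triple mutant, the highest). None of 6 raffinose pathway genes was called, but 5.83% of all genes tested were, so a list of 6 is too short for this to set it apart.

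Of 35 photosynthesis genes, 34 had a fold change below 0, 14 were called lower and none higher, and the median log2 fold change was -1.11. The share called lower over all genes tested was 2.5%. PSAD1, a stromal subunit of photosystem I, stood at 12.2, 10.13 and 9.78 CPM in the double and 2.42, 2.63 and 4.2 in the triple mutant, without overlap. For PSAD1 the log2 change was -1.77 (SE 0.26, adjusted p = 4.76e-06), and the call held whichever library was left out. LHCA2, of its antenna, fell from 11.9, 4.71 and 5.81 to 0.921, 0.627 and 3.15 CPM. For LHCA2 the log2 change was -2.18 (SE 0.50, adjusted p = 0.00415). The adjusted p was 0.064 without replicate 1 of the double and 0.0552 without replicate 2 of the triple mutant. The antenna gene LHCB1.2 was high in replicate 1 of the double mutant (14.8, 3.45 and 2.2 against 0.921, 1.25 and 1.78 CPM, log2 change -2.33, SE 0.58, adjusted p = 0.00806). Without that library its adjusted p was 0.39. Summed over the list the levels were 1043, 767 and 733 CPM in the double and 486, 506 and 588 in the triple mutant, so the groups stayed apart without replicate 1 as well. Called genes numbered 6 without that replicate (median -0.63), 8 without replicate 1 and 5 without replicate 2 of the triple mutant, and 7 in a fit of the compared groups only, all lower. The list held 0.0921 ± 0.0153% and 0.0504 ± 0.00804% of counts in these mutants (exact permutation p = 0.1) and 0.0119 ± 0.00132% in wild type.

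Of 13 genes of chlorophyll synthesis, 4 were called lower and none higher, with a median of -0.79. Over all genes tested, 2.5% were called lower and 3.34% higher. PORB, a light-dependent protochlorophyllide reductase, fell from 20.1, 6.28 and 7.4 to 1.15, 1.88 and 4.09 CPM. For PORB the log2 change was -2.20 (SE 0.45, adjusted p = 0.000997). Its adjusted p was 0.0518 without replicate 1 of the double mutant. CHLD, a subunit of magnesium chelatase, fell from 31.7, 30.8 and 29.1 to 20.7, 19.6 and 21.3 CPM (log2 change -0.57, SE 0.14, adjusted p = 0.00587) whichever library was left out. A single gene of this list was called without replicate 1 of the double mutant. Of 8 genes of chlorophyll breakdown, NYC1, the chlorophyll b reductase that starts it, rose from 109.99, 136 and 128 to 231, 178 and 183 CPM. For NYC1 the log2 change was 0.67 (SE 0.16, adjusted p = 0.00704). PAO, which opens the ring, rose from 120.2, 105 and 128 to 160.1, 212 and 159.7 CPM. For PAO the log2 change was 0.59 (SE 0.18, adjusted p = 0.042). NYC1 lost its call without replicate 1 of the double (0.0709) or of the triple mutant (0.0954), and PAO without any library other than replicate 3 of the triple mutant, at most 0.352.

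Expansins loosen the wall in growing cells, and 4 of 8 were called lower and none higher, with a median of -1.31. For this and the next lists, the shares over all genes tested were 2.5% called lower and 3.34% higher. Beside EXPA2 and EXPA9 these were EXPA8 and EXPA4. EXPA8, named here after its values were seen, had 4.4, 6.04 and 3.79 CPM against 0, 0.376 and 0. For EXPA8 the log2 change was -5.25 (SE 0.73, adjusted p = 1.51e-06). EXPA4 had 4.84, 7.54 and 3.35 CPM against 1.38, 1.76 and 2.2 (log2 change -1.55, SE 0.49, adjusted p = 0.0449), and its call held only without replicate 3 of the double mutant. EXPA15, also named after its values were seen, was not called and had its highest level in replicate 2 of the triple mutant (85.1, 36.8 and 63.2 against 54.3, 234 and 125 CPM). Of 10 cell division genes, 3 were called lower and none higher (median -0.58). MCM5, of the replicative helicase, had 4.66, 7.3 and 4.76 CPM against 1.5, 0.376 and 1.99. For MCM5 the log2 change was -2.07 (SE 0.51, adjusted p = 0.00756). No gene of this list was called without replicate 2 of the double or of the triple mutant, and 1 was in a fit of the compared groups only. Gibberellin genes showed 1 rise, that of GA2 (AT1G79460), the ent-kaurene synthase, from 20.31, 19.5 and 18.5 to 28.7, 29.3 and 31.1 CPM (log2 change 0.61, SE 0.13, adjusted p = 0.00146), which held without any one library. RGA, a DELLA repressor, fell from 15.03, 23.2 and 14.9 to 8.98, 11.3 and 12.4 CPM. For RGA the log2 change was -0.71 (SE 0.19, adjusted p = 0.0168). The call was lost without replicate 2 of the double mutant (0.25) or replicate 1 (0.101) or 2 (0.0524) of the triple mutant.

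Set beside wild type at 20 DAP, from which 29.1% of genes were called higher and 29.7% lower in the double mutant and 25.9% and 25.8% in the triple mutant, the lists lay as follows; these comparisons share their libraries with the one above. Photosynthesis genes called higher than wild type numbered 30 of 35 in the double and 19 in the triple mutant, with medians of 3.58 and 2.18. Of the oil body genes, 9 of 9 were called lower than wild type in both mutants, with medians of -4.06 and -2.90. LEA genes called lower numbered 23 and 22 of 24, with medians of -2.20 and -1.59.

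**Figure D3:**
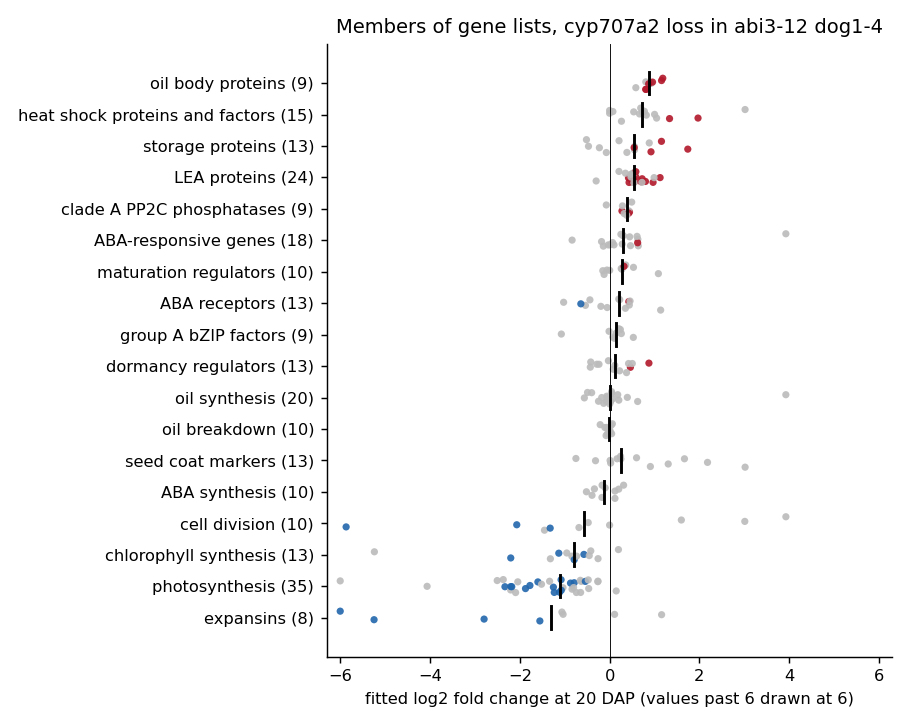
Each point is a member of a gene list, placed by its fitted log2 fold change at 20 DAP (triple over double mutant) and coloured red if called higher, blue if called lower and grey if not called; the black bar is the list's median and the number tested is in brackets. Oil body, storage and LEA genes lie mostly to the right of zero and photosynthesis, chlorophyll synthesis and expansin genes mostly to the left, while oil synthesis and breakdown lie about zero.

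No marker of other tissues of the seed and fruit was called. Tested were 13 seed coat, 4 endosperm and 4 silique wall genes, with medians of 0.25, 0.48 and -0.05. Where 5.83% of all genes tested were called, lists this short can hold no call, so the counts do not set them apart. Summed seed coat markers ranged from 633 to 711 CPM in the double and from 695 to 742 in the triple mutant, and silique wall markers from 40.4 to 54.2 and from 38.0 to 50.9. EPR1, an extensin-like gene of the endosperm, had 22774, 24243 and 26099 and 17407, 27789 and 31849 CPM. The summed level of the endosperm list, nearly all of it EPR1, ranged from 22777 to 26101 CPM in the double and from 17410.0 to 31852 in the triple mutant. Storage protein transcripts, which define maturing seed, were at 145810.0 to 256640.0 CPM in all 6 libraries.

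The same contrast of genotypes was made at the other stages, each from its own libraries. At 18 DAP 1350 genes were called (6.46%), 829 higher (3.96%) and 521 lower (2.49%). At 22 DAP 14205 were called (67.9%), 6679 higher (31.9%) and 7526 lower (36%). At 24 DAP 11236 were called (53.7%), 24% higher and 29.7% lower, and dry seed had 13040 (62.4%), 28% higher and 34.3% lower. A test of the difference itself called 56 genes (0.268%) between 20 and 18 DAP (127 without replicate 1 and 24 without replicate 3 of the triple mutant), 21 with a more positive and 35 with a more negative effect at 20 DAP. It called 9918 genes (47.4%) between 20 and 22 DAP, 5917 (28.3%) between 20 and 24 DAP and 8252 (39.5%) between 20 DAP and dry seed. Of the 1220 genes called at 20 DAP, 82.9% were called the same way at 22 DAP and 4.84% the opposite way; these shared genes were 7.12% of all genes called at 22 DAP. At 18 DAP the shared genes were 35.7% of those called at 20 DAP and 32.3% of those called at 18 DAP. The median log2 fold change at 22 DAP was 1.06 for the genes called higher at 20 DAP and -1.89 for those called lower. All 5 stages called 310 genes the same way, 221 higher and 89 lower, and 66 were called at 20 DAP alone.

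**Figure D4:**
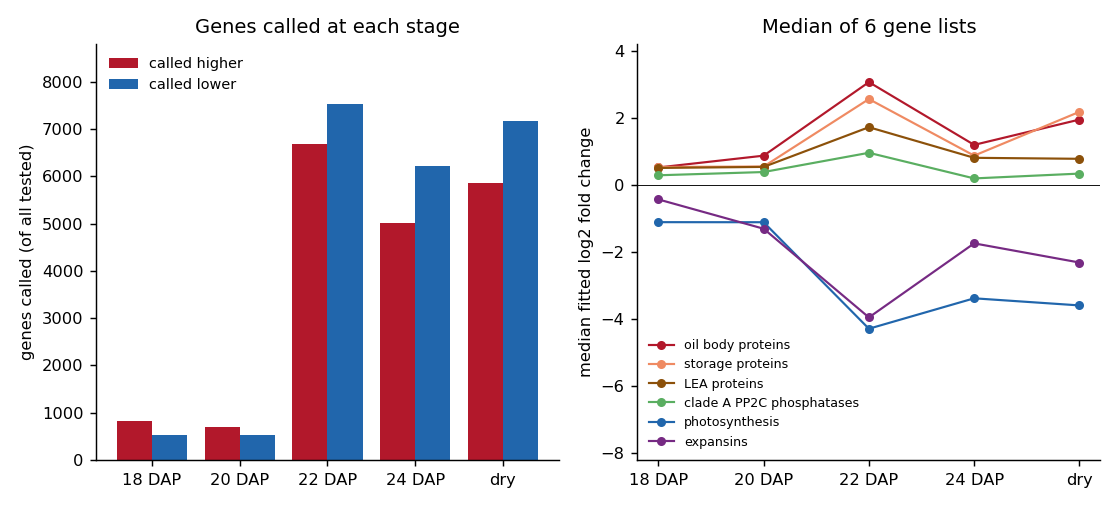
Left, genes called higher (red) and lower (blue) in abi3-12 dog1-4 cyp707a2 against abi3-12 dog1-4 at each stage, of 20912 tested; right, the median fitted log2 fold change of 6 gene lists at each stage. The counts rise from 698 and 522 at 20 DAP to 6679 and 7526 at 22 DAP, and each list's median is furthest from zero at 22 DAP.

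For the 6 lists plotted, the median kept its sign at every stage. The median of oil body genes was 0.52 at 18 DAP, 0.87 at 20 DAP and 3.06 at 22 DAP, that of LEA genes 0.50, 0.54 and 1.72, and that of photosynthesis genes -1.11, -1.11 and -4.29. At 22 DAP 34 of 35 photosynthesis genes were called lower, 13 of 13 storage genes higher and 8 of 9 PP2C genes higher. Over all genes tested at that day, 36% were called lower and 31.9% higher. The difference between 20 and 22 DAP was itself called for 29 photosynthesis genes, 18 LEA genes and 12 storage genes in the direction of a larger effect at 22 DAP. The list of 18 ABA-responsive genes did otherwise than the PP2C genes. Its median was 0.29 with 1 gene called higher at 20 DAP, and -0.89 with 4 higher and 11 lower at 22 DAP. GASA3 had an effect of 1.29 at 18, 1.48 at 20 and 4.14 at 22 DAP on the log2 scale. The sign turned for a pair of the largest rises: LOX2 had effects of 3.39, 2.52 and -1.26 and MSRB5 of 3.39, 2.93 and -2.07 at these 3 days. LOX2 was uneven in the triple mutant at 18 DAP, at 23.5 ± 21.2 CPM (SD, n = 3).

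**Figure D5:**
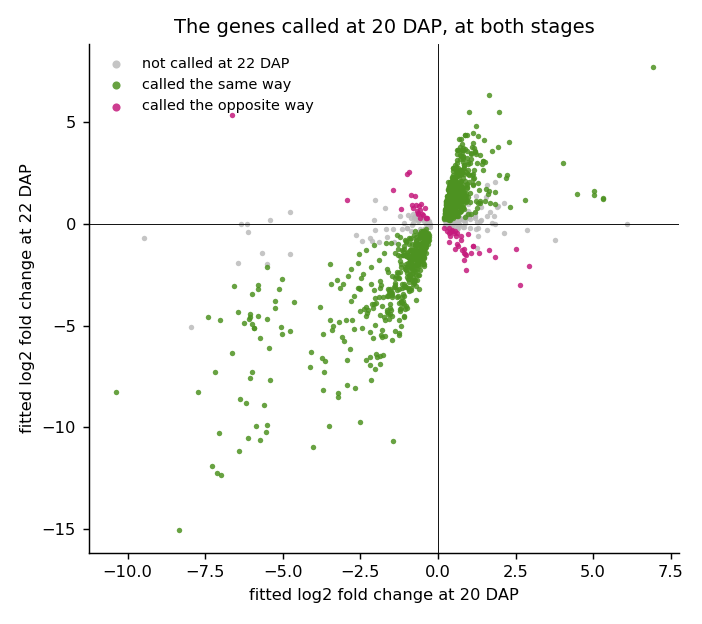
For each of the 1220 genes called at 20 DAP, its fitted log2 fold change at 20 DAP (x) and at 22 DAP (y), green if called the same way at 22 DAP (82.9%), magenta if called the opposite way (4.84%) and grey if not called there. Most genes lie in the lower left and the upper right, further from zero on the 22 DAP axis.

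Genes were also chosen in libraries that the 20 DAP comparison does not use. The 22 DAP libraries name 4342 genes at least 2-fold lower in the double mutant than in wild type. At 20 DAP the cyp707a2 fold change was above 0 for 77% of them, 9.53% were called higher against 3.34% of all genes tested, and 0.622% lower. The 6196 genes at least 2-fold higher in the double mutant than in wild type at 22 DAP showed the reverse, with 26.5% above 0, 6.88% called lower against 2.5% of all, and 0.613% called higher. The shifts were small, with medians of 0.16 and -0.18 on the log2 scale.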

How the data were processed

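The authors deposited a table of raw counts per gene. Per the submitters' processing notes HISAT2 2.1.0, Cufflinks, SAMtools, StringTie 1.3.2 and the build TAIR10 were used; the counting program is not given in the sources used here. Per the labels' protocols, poly(A) RNA was sequenced strand-specifically. Symbols came from RefSeq (37051 of 37336 identifiers matched) and promoters from RefSeq TAIR10.1. Counts of all 31 batch B groups (92 libraries) were fitted together with edgeR 4.0.16 (R 4.3.3) after filterByExpr (minimum count 10) and TMM scaling. Quasi-likelihood tests were adjusted by Benjamini-Hochberg, and an adjusted p under 0.05 is a call. Alternatives were RLE factors, library totals, no filter, DESeq2 1.42.0, a fit of the compared groups only, a replicate block, a test against 2-fold, an adjusted p under 0.01 and each library left out. Scripts were tested on counts simulated with the spread estimated by the fit itself. This checks the code and cannot show whether that spread holds in the libraries compared.

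Members and gene lists were chosen with earlier results of these data known. Selected for naming were the targeted genes and 20 genes added after values were seen. The 10 largest called rises and falls without overlap and with a mean of at least 10 CPM were also selected. Each list gave up to 4 called members with a mean of at least 5 CPM, or the 2 most abundant where fewer than 2 were called. The 3 largest differences between stages in each direction were taken too. Not all selected genes are printed above, and EXPA8, EXPA15, XBAT31 and TOPP1 are named outside this selection. Within 5 tested genes of CYP707A2, called neighbours are named.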

Additional observations from a re-analysis of the deposited data

Results flagged for a closer look

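The effect of the cyp707a2 mutation was compared between stages by a test of the difference itself, in the same edgeR fit. It differed between 20 DAP and 18 DAP for 56 genes, between 20 and 22 DAP for 9918, between 20 and 24 DAP for 5917 and between 20 DAP and dry seed for 8252.

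Of the 3 genes with the largest differences in each direction, the log2 effect at 20 DAP minus that at 22 DAP was 11.39 for AT4G29690, 11.18 for TOPII and 10.6 for RBCS2B, and it was -8.399 for scpl31, -8.779 for AT1G27580 and -11.92 for LpxC2. TOPII was at or under the floor of 3 counts per library in both groups at 20 DAP. LpxC2 had 54.2, 0 and 64.6 CPM in the double mutant and no count in the triple mutant. AT1G27580 had 6.42, 9.26 and 6.96 CPM in the double mutant and no count in the triple mutant. Its adjusted p at 20 DAP was 0.0654 without replicate 2 and 0.0509 without replicate 3 of the triple mutant. The values of TOPII, LpxC2 and AT1G27580 thus depend on groups with few counts or none. With 1 library left out the effect of RBCS2B at 20 DAP ranged from -9.325 to -1.578, so its size is unsettled too. Those of AT4G29690 and scpl31 at 20 DAP ranged from -1.632 to -0.1322 and from -0.3735 to -0.1488. Their differences thus come mostly from the fitted effect at 22 DAP. The effect at 20 DAP minus that at 18 DAP was 1.635 for AT3G09950, 1.625 for AT5G10120, 1.487 for AT2G15830 and -4.976 for ATSDI1. It was -9.871 for both AT1G59124 and AT1G58807, near-identical copies whose reads the counting could have divided between them. Both had no count in the double mutant at 18 DAP, so that this fitted value is not a measured size. ATSDI1 was uneven in the triple mutant at 18 DAP, at 161 ± 141 CPM (SD, n = 3).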

How the results depend on the processing

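Of the counts of genes called, that at 20 DAP (1220) became 2096 with library totals, 499 in a fit of the compared groups only and 490 at an adjusted p under 0.01, and ranged from 399 to 977 with 1 library left out. The share called higher was 57.2%, 11.3% with library totals, 45.5% in the fit of the compared groups only and 41.9% with no expression filter. The count of at least 2-fold (367) became 163 in the fit of the compared groups only and 18 with a test against 2-fold, and ranged from 177 to 372 with 1 library left out. The 56 differences between 20 and 18 DAP became 136 with DESeq2 and 4 in the fit of the compared groups only, and ranged from 24 to 127. The cause of these changes was not tested. With the replicate number as a block, 169 genes were called, 78 of them at least 2-fold. Deviations of same-numbered libraries correlated at -0.017, -0.0061 and 0.0904, which cannot decide whether the numbers pair libraries. The labels do not state such a pairing. With the block, 1 oil body, 0 storage, 3 LEA and 0 PP2C genes were called higher and 4 photosynthesis and 3 expansin genes lower.

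None of the named genes whose direction reversed was called. With library totals the log2 fold changes were -0.08152 for AT1G58807 and AT1G59124, -0.1435 for GolS1, -0.1173 for EPR1, -0.1844 for ARA12, -0.05226 for GA3, -0.07737 for RGL3, -0.02244 for TT10, -0.07876 for ABA2, -0.1561 for FAD2 and -0.1492 for MLS. ARA12 was also at -0.007097 with RLE factors, -0.03171 with no filter, -0.007123 with DESeq2, -0.02338 in the fit of the compared groups only and -0.02333 with the replicate block, where EPR1 was at -0.001796. With 1 library left out the ranges were -0.12 to 0.2154 for ABA2, -0.04169 to 0.02007 for ARA12, -0.2265 to 0.3933 for AT5G10120, -0.07785 to 0.673 for DOG1, -0.109 to 0.2681 for EPR1, -0.1169 to 0.1243 for FAD2, -0.3906 to 0.05608 for FAD3, -0.01563 to 0.08233 for GolS1, -0.06169 to 0.1021 for MLS, -0.04078 to 0.2572 for RGL3, -0.1351 to 0.05964 for SNRK2.3, 0 to 4.093 for TOPII and -0.1247 to 0.0636 for UGT71C5. Of the 77 genes called among those selected for naming, 29 were called with any 1 library left out. EXPA8, XBAT31 and TOPP1, which were called but stand outside that selection, are not in this count.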

Other observations

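The gene groups of this section were picked after the values had been seen, so their counts describe these libraries and support nothing. At 20 DAP the shares over all genes tested were 3.34% called higher and 2.5% lower. Of genes that plants raise when sulfur is short, 8 of 13 tested were called higher and none lower, with a median log2 fold change of 0.96. The root-type sulfate transporter gene SULTR1;2 had 0.791, 1.96 and 0.352 CPM in the double mutant and 5.3, 9.03 and 8.29 in the triple mutant, against 50.1 ± 6.44 in wild type and 0.402 ± 0.38 in abi3-12 (SD, n = 3). For SULTR1;2 the log2 change was 2.81 (SE 0.40, adjusted p = 2.69e-06). LSU2, a small protein gene of the sulfur response, rose from 2.37, 2.51 and 1.76 to 7.14, 9.91 and 7.87 CPM (log2 change 1.89, SE 0.36, adjusted p = 0.000419). Both calls held whichever library was left out. The summed level was 211, 374 and 220.4 CPM in the double and 462, 604 and 494 in the triple mutant, without overlap. Genes called numbered 3 without replicate 1 of the double mutant, 5 without its replicate 3 and 3 without replicate 2 of the triple mutant. All 13 were called higher at 18 DAP, with a median of 3.10, and at 22 DAP 4 were called higher and 4 lower. In the triple mutant at 18 DAP SULTR1;2 was at 5.61 ± 5.36 CPM and LSU2 at 17.2 ± 6.63 (SD, n = 3). For SULTR1;2 the spread was thus nearly as large as the mean. No 18 DAP library was left out in turn.

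Of 21 flavonoid and anthocyanin genes tested, 17 had a fold change above 0, 10 were called higher and none lower, with a median of 0.90. DFR, the dihydroflavonol reductase, stood at 9.41, 11.6 and 11.7 CPM in the double and 19.1, 29.5 and 28.98 in the triple mutant (log2 change 1.24, SE 0.26, adjusted p = 0.00129). GSTF12, needed to carry the pigments to the vacuole, stood at 2.37, 2.98 and 2.47 and 6.91, 9.78 and 8.5 CPM (log2 change 1.68, SE 0.30, adjusted p = 0.000167). Neither call depended on a single library, while the list's count was 4 without replicate 2 of the triple mutant and 6 in a fit of the compared groups only. Of 13 genes of ER bodies and indole glucosinolates, defence systems of seedlings and roots, 9 were called lower and none higher, with a median of -1.71. CYP79B2, which turns tryptophan to its oxime, fell from 6.51, 5.42 and 5.64 to 0.345, 1 and 0.525 CPM (log2 change -3.23, SE 0.53, adjusted p = 6.64e-05) whichever library was left out. The list's sum was 418, 225 and 191 CPM against 103, 101 and 119. Genes called numbered 4 without replicate 1 and 5 without replicate 2 of the double mutant, and 5 without replicate 1 and 4 without replicate 2 of the triple mutant. Of the 6 subunits of the MCM2 to MCM7 helicase, 5 were called lower, but none without replicate 2 of the double or replicate 2 of the triple mutant. Of 21 genes tested of the XTH family, which cuts and rejoins xyloglucan, 4 were called lower and none higher, with a median of -0.56. The family's summed level went the other way, at 2306, 2196 and 2518 CPM in the double and 3359, 3453 and 3259.8 in the triple mutant, without overlap.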
